A study of Mus musculus with 9 samples.

Results

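Autotaxin (Enpp2), the receptors of its product lysophosphatidic acid (Lpar1, Lpar2, Lpar4 and Lpar6) and the lipid phosphate phosphatases Plpp1 and Plpp3 were followed in LLC1, the cultured line of the Lewis lung carcinoma of the mouse, and in its subclones SCC1 and SCC2. The 7 members were chosen by symbol, with their FPKM levels in these 3 lines already known. Differences in their levels between the lines are therefore a description: no p-value is given for a member, and the one count of members past the threshold of the fit is printed only beside the share of all genes past it. Values for 6 of them were among the 15768 genes measured, and Lpar4 was not analysed here. Of these 6, 5 passed the filter for testing, which asked for 1 FPKM or more in 3 or more of the 9 libraries; Plpp3 did not. Each line had 3 RNA-seq libraries of untreated cells labelled as wild type, grown in DMEM with 10% fetal bovine serum, antibiotics and CO2. SCC1 and SCC2 were each 1 clone, obtained from LLC1 by limiting dilution and passaged 5 to 8 times. The labels do not tell whether a line's 3 libraries are 3 cultures, and the p-values below reflect the spread of these libraries alone, which may be technical.

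Autotaxin is a secreted lysophospholipase D that makes lysophosphatidic acid (LPA) from lysophosphatidylcholine outside the cell. LPA acts on G protein-coupled receptors, of which Lpar1 and Lpar2 belong to the Edg family and Lpar4 and Lpar6 to a P2Y-like family, and it drives migration, contraction and growth of many tumour and stromal cells. Lipid phosphate phosphatases on the cell surface remove the phosphate of LPA and so end its action. Serum contains autotaxin and LPA of its own.

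FPKM divides a gene's fragments by its length and by the library's depth, so levels of different genes are compared per length and every change is relative to the other transcripts of a library. The depth, recovered as whole fragments from the steps of low values, ran from 17094808 to 19398657 fragments per library. Over genes, which are no replicates, Spearman coefficients between libraries were 0.992 to 0.993 within a line and 0.977 to 0.984 across lines. The label of lung tumour cells was set against markers. The keratins Krt8 and Krt18 were at 75.3 to 155 and 157 to 295 FPKM (line means), while Cdh1, Sftpc and Nkx2-1 were at 0.0222 FPKM or less (line means). Krt19 had means of 1.40, 1.27 and 0.333 FPKM in LLC1, SCC1 and SCC2. Ager, the other lung epithelial marker analysed, had 0.892, 0.551 and 1.13 FPKM. Of the fixed markers that were analysed, 0 endothelial and 0 lymphocyte genes reached 1 FPKM in any library. Against this, Cd68, Cd14, Mrc1 and Ly6g among macrophage and leukocyte markers did. So did Col3a1, Dcn, Lum and Pdgfra among fibroblast markers, and Fabp4 among adipocyte markers. Col3a1 was at 257 to 699 FPKM (line means).

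The promoters of the 2 Edg-type receptors are shown because Lpar1 and Lpar2 differed in opposite directions between SCC1 and LLC1. Each run is 300 bases of GRCm38.p6 from RefSeq, from 250 bases before to 50 bases after an annotated start, written 5′ to 3′ on the strand of the gene. They lie at chr4:58553442-58553741 on the minus strand for Lpar1, the first of 3 starts in the table, and at chr8:69822315-69822614 on the plus strand for Lpar2. Capitals mark matches on either strand to any of 7 motifs. The AP-1 motif was searched as TGANTCA, and the E-box as CACGTG. The CRE was searched as TGACGTCA, and the TCF motif as CTTTGA. The GC box was searched as GGGCGG, the TATA motif as its letters TATAAA, and the CCAAT box by the letters of its name.
Lpar1: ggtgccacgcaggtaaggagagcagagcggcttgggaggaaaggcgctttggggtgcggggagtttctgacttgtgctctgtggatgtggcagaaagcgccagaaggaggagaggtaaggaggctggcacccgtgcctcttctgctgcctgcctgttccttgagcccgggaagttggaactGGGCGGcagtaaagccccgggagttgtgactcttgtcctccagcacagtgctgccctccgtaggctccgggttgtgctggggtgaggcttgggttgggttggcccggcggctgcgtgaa
Lpar2: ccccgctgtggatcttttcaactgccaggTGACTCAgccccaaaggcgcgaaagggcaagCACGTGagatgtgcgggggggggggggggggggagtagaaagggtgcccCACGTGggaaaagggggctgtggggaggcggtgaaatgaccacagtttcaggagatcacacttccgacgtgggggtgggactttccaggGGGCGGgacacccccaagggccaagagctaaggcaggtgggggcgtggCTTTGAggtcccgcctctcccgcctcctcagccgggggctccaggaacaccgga
The Lpar1 window held 1 match, a GC box, and the Lpar2 window held 1 AP-1 match, 2 E-boxes, 1 TCF match and 1 GC box. The Lpar6 window, which is not printed, held 0 matches. Of 32851 promoter windows of this length, 35.7% held the GC box, 7.81% the AP-1 letters, 7.15% the E-box, 16.0% the TCF letters, 1.79% the CRE, 13.6% TATA and 37.4% CCAAT. GC content was 63.0% for Lpar1, 66.0% for Lpar2 and 40.0% for Lpar6, against a median of 52.7% over all windows. A match is a run of letters and not evidence of binding, and FPKM values do not show which start a line used. Promoters of 5 of the 7 members were in the table, and those of Enpp2 and Plpp1 were not used here.

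Autotaxin transcripts were highest in the parental line and lowest in SCC2. Enpp2 (chr15:54838901-54952789, minus strand, RefSeq GRCm38.p6) stood at 48.8, 49.5 and 47.6 FPKM in the 3 LLC1 libraries. In SCC1 it stood at 12.9, 13.2 and 13.4 FPKM, and in SCC2 at 7.35, 7.91 and 7.47 FPKM. All 3 lines were separate, with no library of one line within the range of another. The means were 48.6 ± 0.962, 13.2 ± 0.238 and 7.58 ± 0.297 FPKM (SD, n = 3 each, as for every ± below). The LLC1 level was thus 3.69 times that of SCC1 (3.55 to 3.83 over pairs of libraries) and 6.42 times that of SCC2 (6.02 to 6.74). SCC1 was in turn 1.74 times SCC2 (1.63 to 1.82). In these bulk samples, fewer cells with the transcript and less of it per cell cannot be told apart.

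Counting error was small beside these differences. Enpp2 rested on 3254 to 3645 fragments per LLC1 library, 978 to 1002 per SCC1 library and 531 to 590 per SCC2 library. Its spread between libraries of a line (a coefficient of variation of 1.81% to 3.92%) was about what counting alone gives (1.69% to 4.24%). By level, Enpp2 ranked between 1327 and 1395 from the top of 15768 genes in LLC1 libraries, between 4909 and 5024 in SCC1 and between 6580 and 6823 in SCC2.

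**Figure D1:**
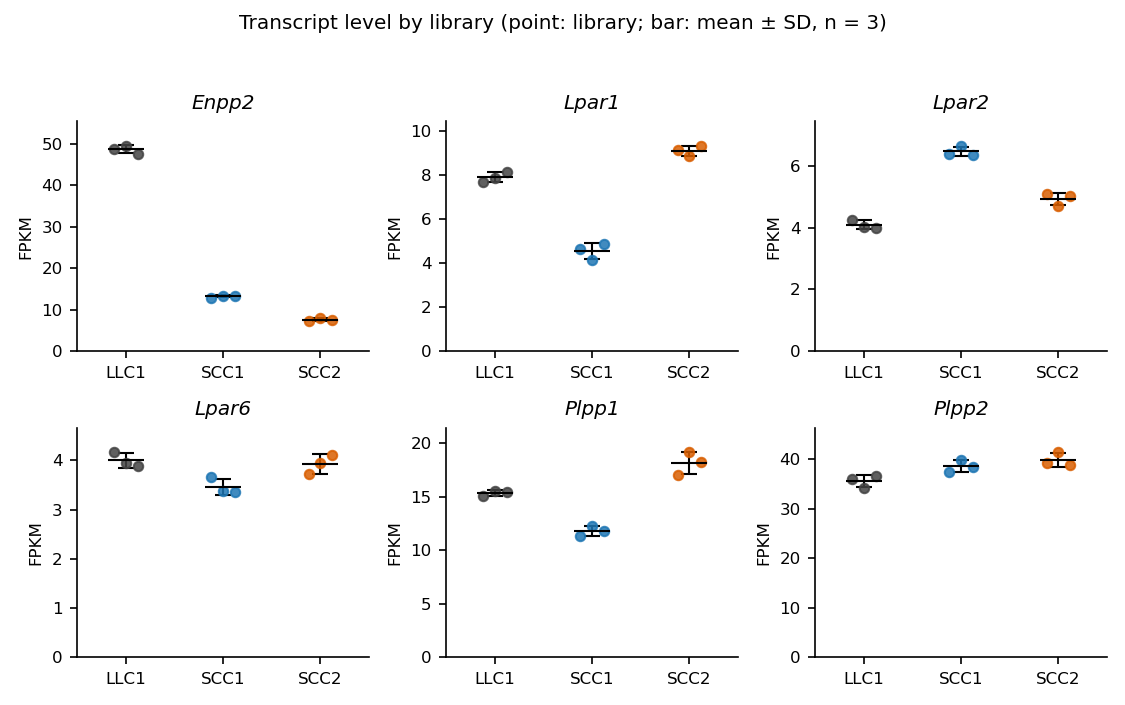
FPKM (y axis, from 0) of Enpp2, 3 receptors and 2 phosphatases in each library (points) of LLC1, SCC1 and SCC2, with the mean and SD of 3 libraries. Enpp2 falls from 48.6 FPKM in LLC1 to 13.2 in SCC1 and 7.58 in SCC2, while Lpar1 and Plpp1 are lowest in SCC1 and highest in SCC2.

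On the log2(FPKM + 1) scale, the fitted change of Enpp2 was -1.81 (SE 0.0318) in SCC1 against LLC1, -2.53 (SE 0.0318) in SCC2 against LLC1 and -0.72 (SE 0.0318) in SCC2 against SCC1. Counted from the lowest change among 10519 tested genes, Enpp2 ranked 31 in SCC1, 7 in SCC2 and 418 in SCC2 against SCC1. Genes that passed an adjusted p of 0.05 with a fall of 2-fold or more made up 1.42% of tested genes in SCC1 and 1.34% in SCC2, and 1.84% in SCC2 against SCC1. In either direction the shares were 1.91%, 1.58% and 3.35%. The chromosome of Enpp2 moved less and not always the same way. The median change of 431 tested genes on chromosome 15 was 0.16 in SCC1 against LLC1, -0.26 in SCC2 against LLC1 and -0.44 in SCC2 against SCC1. Once chromosome medians were removed, Enpp2 changed by -1.98, -2.27 and -0.30 in these comparisons, so the difference between the subclones was the one that moved most.

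Against LLC1, none of the tested genes beside Enpp2 changed by as much. Of the 5 nearest protein-coding genes on each side, 5 of 10 were tested. In SCC1 against LLC1 4 of these rose and 1 fell, where 39.2% and 30.9% of all tested genes did. In SCC2 2 rose and 2 fell, against 34.7% and 32.9%. All these log2 changes lay between -0.60 and 0.32. In SCC2 against SCC1 0 rose and 3 fell, where 37.0% and 39.4% of all tested genes did, with changes of -0.35 to 0.059. Without chromosome medians, Ccn3 (0.49) and Dscc1 (0.36) changed by more than Enpp2 (-0.30) in that comparison. Ccn3, the next gene on one side and a secreted matricellular protein, had 6.93 ± 0.353 FPKM in LLC1, 7.70 ± 0.410 in SCC1 and 8.07 ± 0.483 in SCC2. Its rise in SCC1 (0.13) turned to -0.033 once chromosome medians were removed. It did not pass with no filter on low values (limma adjusted p = 0.0608), with median-of-ratios scaling (0.0766), or without LLC1 replicate 1 (0.129), LLC1 replicate 2 (0.0670), SCC1 replicate 2 (0.117) or SCC1 replicate 3 (0.0966). Taf2, a TFIID subunit and the next gene on the other side, rose in SCC1 from 24.0 ± 0.591 to 30.1 ± 1.19 FPKM, and had 24.4 ± 0.428 FPKM in SCC2. The SCC2 difference of Taf2 from LLC1 was not called (log2 change 0.025, limma adjusted p = 0.503). Without chromosome medians it was called higher (0.28, adjusted p = 1.06e-05). Dscc1, which helps to load the replication clamp, rose in both subclones (log2 changes 0.30 and 0.23), though the SCC1 rise did not pass without chromosome medians (adjusted p = 0.0653). Deptor, an inhibitor of mTOR kinase, fell in both, from 25.0 ± 0.219 FPKM to 19.2 ± 0.251 in SCC1 and 16.2 ± 0.650 in SCC2. Mrpl13, of the mitochondrial ribosome, had changes of 0.091 in SCC1 and -0.26 in SCC2, which became -0.076 and 0.000194 once chromosome medians were removed. The SCC1 change did not pass with quantile normalization (adjusted p = 0.313), with median-of-ratios scaling (0.0708), or without LLC1 replicate 1 (0.0535), LLC1 replicate 3 (0.0626), SCC1 replicate 1 (0.0545) or SCC1 replicate 2 (0.0598). GENCODE M21 also places the opposite-strand non-coding gene Gm26684 over an exon of Enpp2, and no source used here says whether fragments were counted by strand.

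**Figure D2:**
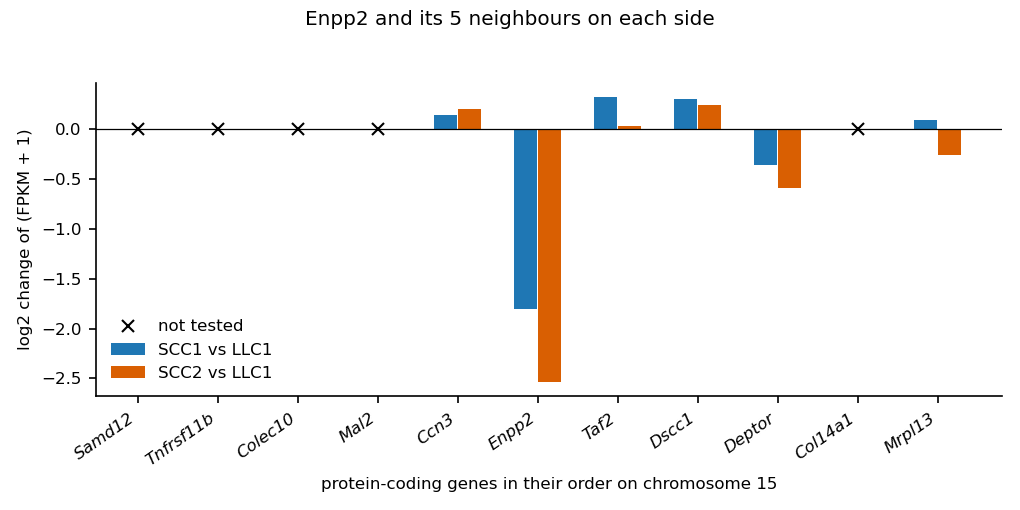
Fitted log2 changes of FPKM + 1 (y axis) in SCC1 (blue) and SCC2 (orange) against LLC1 for Enpp2 and its 5 neighbours on each side, in chromosome order (x axis). Crosses are genes that were not tested and carry no value. Enpp2 reaches -1.81 and -2.53, and the tested neighbours lie between -0.60 and 0.32.

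The patterns most like that of Enpp2 were found by the distance between log2(FPKM + 1) values over 9 libraries, each gene centred on its own LLC1 mean. The nearest of 10518 genes was Nes, the intermediate filament nestin, at a distance of 0.705, where the median gene lay at 5.46. A gene with no change in any library would lie at 5.39, close to that median. Nes had 18.5 ± 0.30 FPKM in LLC1, 6.16 ± 0.111 in SCC1 and 2.78 ± 0.0404 in SCC2, the same order as Enpp2. Crabp1, a cytosolic carrier of retinoic acid, followed at 0.830, with 6.42 ± 0.769, 1.29 ± 0.126 and 0.721 ± 0.247 FPKM. The next 6 were the homeobox gene Hoxb9, the myosin Myo5c, the sialomucin Cd34, the sulfotransferase Chst2, Rgl3 and the imprinted gene Peg3, at distances of 0.895 to 1.09. These 6 had 2.94 to 4.45 FPKM in LLC1 and at most 0.123 FPKM (line means) in either subclone, so they were near 0 in both, unlike Enpp2. All 6 passed the filter only through LLC1, which set their direction, and on the log2(FPKM + 1) scale the size of their fall is capped by their LLC1 level. Their place near Enpp2 with another pseudocount was not tested. Crabp1 and, of these 6, Myo5c, Chst2 and Rgl3 lie on chromosome 9, while Enpp2 lies on chromosome 15. No member other than Enpp2 had a fitted change of 1 or more in any comparison (largest 0.87), so no like genes are named for them.

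The receptors did not follow the enzyme. Lpar1 (chr4:58435252-58554027, minus strand), the widely expressed Edg-type LPA receptor, stood at 7.66, 7.85 and 8.13 FPKM in LLC1, at 4.61, 4.13 and 4.87 in SCC1 and at 9.10, 8.85 and 9.30 in SCC2. SCC1 libraries were all below and SCC2 libraries all above those of LLC1. The SCC1 mean (4.53 ± 0.377) was 57.5% of the LLC1 mean (7.88 ± 0.234), and the SCC2 mean (9.08 ± 0.228) was 115% of it. The log2 changes were -0.68 (SE 0.0485) and 0.18 (SE 0.0485), and 0.87 between the subclones. Chromosome 4 had a median change of -0.33 over 614 tested genes in SCC1 against LLC1, and without chromosome medians the Lpar1 changes were -0.35 in SCC1, 0.22 in SCC2 and 0.58 between the subclones.

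Lpar2 (chr8:69822565-69831102, plus strand), also of the Edg type, was higher in SCC1 than in LLC1, where Lpar1 was lower. It stood at 4.27, 4.04 and 4.01 FPKM in LLC1, at 6.41, 6.67 and 6.38 in SCC1 and at 5.10, 4.72 and 5.03 in SCC2. Both subclones lay above LLC1 in every library, and SCC1 lay above SCC2. The means were 4.11 ± 0.142, 6.48 ± 0.158 and 4.95 ± 0.203 FPKM, which put SCC1 at 1.58 times and SCC2 at 1.20 times LLC1. The log2 changes were 0.55 (SE 0.0406) and 0.22 (SE 0.0406), the latter 0.12 without chromosome medians.

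Lpar6 (chr14:73237891-73240358, plus strand), a P2Y-like receptor linked to hair growth, was nearly level. It stood at 4.16, 3.94 and 3.88 FPKM in LLC1, at 3.65, 3.39 and 3.35 in SCC1 and at 3.72, 3.95 and 4.11 in SCC2. SCC1 was below both other lines in every library, while LLC1 and SCC2 overlapped. The log2 changes were -0.16 (SE 0.0466) in SCC1 and -0.021 (SE 0.0466) in SCC2. Lpar6 rested on 151 to 192 fragments per library, the fewest of the 3 receptors, and its spread of 3.66% to 4.98% was below the 7.49% to 7.90% that counting alone gives. The gene lies within Rb1, which is on the opposite strand with exons that overlap it in GENCODE M21. Rb1, the retinoblastoma protein, had 4.67 ± 0.30 FPKM in LLC1, 7.20 ± 0.608 in SCC1 and 3.02 ± 0.249 in SCC2, so it was highest in SCC1, where Lpar6 was lowest. The part of Rb1 fragments in the Lpar6 value was not tested.

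The receptors outside the member list that were analysed were close to 0. Lpar3 had at most 2 fragments in any library and 0 in all 3 SCC1 libraries, and Lpar5 at most 2 fragments and 0 in all SCC1 libraries. A count of 0 allows up to 3 fragments. Gpr35, an orphan receptor for which LPA has been proposed as a ligand, had 0.231 ± 0.0386 FPKM in LLC1, 0.0848 ± 0.0118 in SCC1 and 0.358 ± 0.0150 in SCC2. None of the 5 listed receptors was tested.

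The mix of receptor transcripts in SCC1 differed from that of the other lines. Summed over Lpar1, Lpar2, Lpar3, Lpar5 and Lpar6, the level was 16.0 ± 0.142 FPKM in LLC1, 14.5 ± 0.263 in SCC1 and 18.0 ± 0.459 in SCC2. Lpar1 made up 49.2% ± 1.45 of this sum in LLC1, 31.3% ± 2.13 in SCC1 and 50.5% ± 0.164 in SCC2. Lpar2 made up 25.6% ± 0.828, 44.8% ± 1.92 and 27.5% ± 0.805. Lpar1 was therefore the leading receptor transcript in LLC1 and SCC2 and Lpar2 in SCC1, in every library. Lpar6 held 25.0% ± 0.874, 23.9% ± 0.990 and 21.8% ± 0.968. The ratio of Enpp2 to this sum was 3.04 ± 0.0834 in LLC1, 0.910 ± 0.0257 in SCC1 and 0.422 ± 0.0254 in SCC2.

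**Figure D3:**
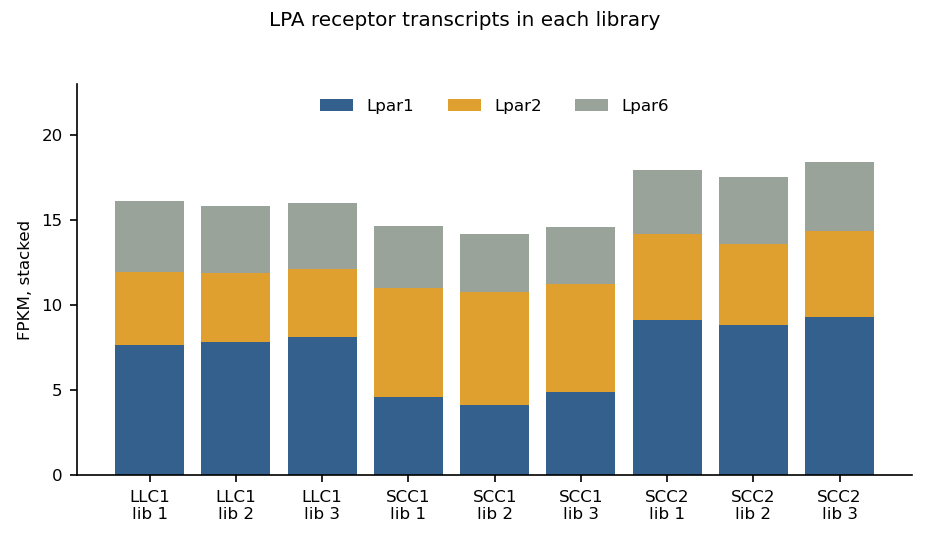
Stacked FPKM (y axis, from 0) of Lpar1, Lpar2 and Lpar6 in each of the 9 libraries (x axis). Lpar1 is the largest part in LLC1 and SCC2 and Lpar2 in SCC1, while the mean sum is 16.0, 14.5 and 18.0 FPKM in LLC1, SCC1 and SCC2.

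Of the phosphatases, Plpp1 varied in the same order as Lpar1. Plpp1 (chr13:112800777-112867894, plus strand), an integral membrane enzyme that acts on LPA and related lipid phosphates, stood at 15.1, 15.5 and 15.5 FPKM in LLC1. It stood at 11.4, 12.3 and 11.8 FPKM in SCC1 and at 17.1, 19.2 and 18.3 in SCC2. SCC1 libraries lay below and SCC2 libraries above every LLC1 library. The means were 15.4 ± 0.238, 11.8 ± 0.449 and 18.2 ± 1.06 FPKM, with log2 changes of -0.35 (SE 0.0414) in SCC1, 0.23 (SE 0.0414) in SCC2 and 0.58 between the subclones. Chromosome 13 had median changes of 0.10 and 0.35 over 405 tested genes in SCC1 and SCC2, and without chromosome medians Plpp1 was lower in both, by -0.45 in SCC1 and -0.13 in SCC2, with 0.32 between the subclones. Mtrex, an RNA helicase of the nuclear exosome on the opposite strand, has an exon that overlaps Plpp1. It had 35.7 ± 0.780 FPKM in LLC1, 41.3 ± 0.659 in SCC1 and 47.8 ± 0.288 in SCC2, and its part in the Plpp1 value was not tested.

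Plpp3 (chr4:105157347-105232767, plus strand), the phosphatase known for its role in vessels, was listed at 0 in 8 of 9 libraries. The remaining library, SCC2 replicate 1, had 0.0175 FPKM, taken as 1 fragment, and at that scale the 3 fragments that a count of 0 allows equal 0.0524 FPKM. Plpp2, which is no member, had the highest level of the 3 enzymes. It stood at 35.9, 34.2 and 36.5 FPKM in LLC1, at 37.4, 39.8 and 38.3 in SCC1 and at 39.2, 41.3 and 38.8 in SCC2. Both subclones were higher than LLC1, by log2 changes of 0.11 and 0.16 (limma adjusted p = 0.00987 and 0.00131), the latter not past the threshold without chromosome medians (adjusted p = 0.108). Plpp2 made up 69.8% ± 0.879 of the summed phosphatase level in LLC1, 76.5% ± 0.160 in SCC1 and 68.6% ± 0.899 in SCC2.

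**Figure D4:**
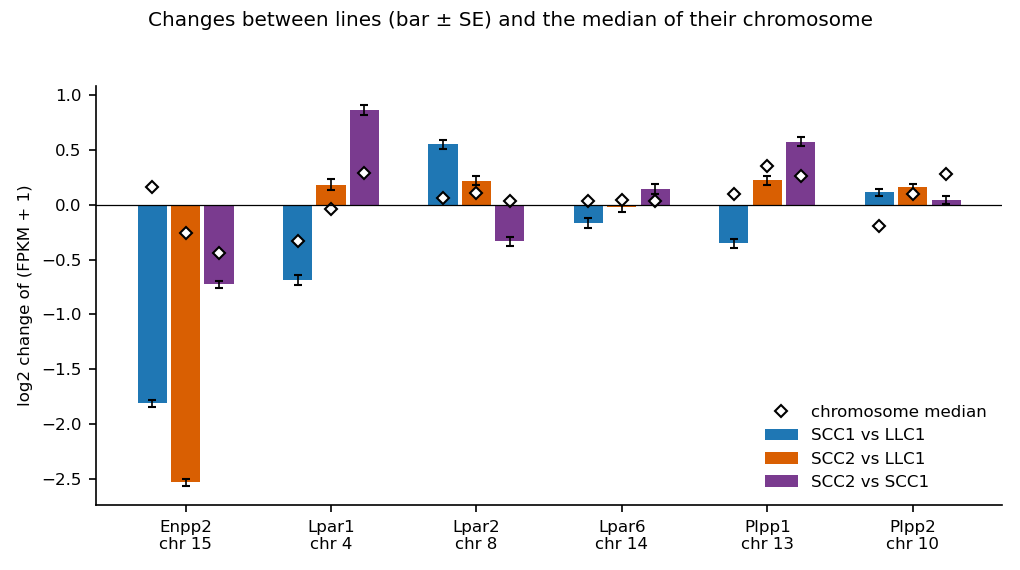
Fitted log2 change of FPKM + 1 (y axis, bar with SE) of 5 members and Plpp2 in the 3 comparisons, with the median change of their chromosome as a diamond. Enpp2 is far below its chromosome median in SCC1 and SCC2, whereas the Plpp1 bar in SCC2 (0.23) lies under the diamond of chromosome 13 (0.35).

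Read over all members, the count of calls says little. In SCC1 against LLC1 5 of 5 tested members passed an adjusted p of 0.05, 1 higher and 4 lower, in a comparison where 70.1% of all tested genes passed (39.2% higher and 30.9% lower). In SCC2 against LLC1 4 of 5 passed, 3 higher and 1 lower, against 67.6% of all genes (34.7% and 32.9%). In SCC2 against SCC1 5 of 5 passed, 3 higher and 2 lower, against 76.3% (37.0% and 39.4%). The member choice used these contrasts, so nothing is read from the counts. Libraries did not overlap for as many members in each comparison (5, 4 and 5), where 72.3% (40.4% higher and 31.8% lower), 70.7% (36.5% and 34.2%) and 77.9% (38.0% and 39.9%) of all tested genes did not overlap. The median log2 change of the members was -0.35, 0.18 and 0.14, against 0.033, 0.0075 and -0.0029 for all genes.

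The other genes of the path came from 8 lists with 116 genes, of which 76 were tested. In SCC1 against LLC1 25 rose, 39 fell and 12 did not pass, which is 84.2% called where 70.1% of all genes were. In SCC2 against LLC1 29 rose, 29 fell and 18 did not pass (76.3% called, against 67.6% of all genes). In SCC2 against SCC1 37 rose, 31 fell and 8 did not pass (89.5% called, against 76.3% of all genes). One of the genes that fell in both subclones, S1pr1, passed the filter only through LLC1. Median changes were -0.10, -0.020 and 0.074. Over all tested genes they were 0.033, 0.0075 and -0.0029. Calls below are limma calls at an adjusted p of 0.05.

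**Figure D5:**
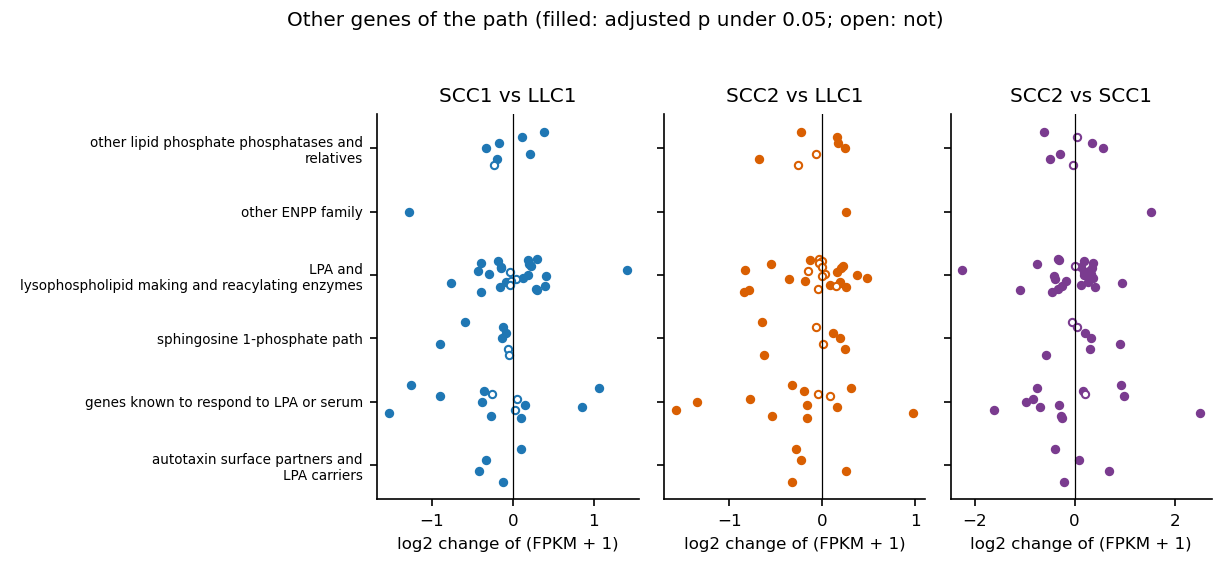
Fitted log2 change of FPKM + 1 (x axis) of each tested gene (point) of 6 of the lists (y axis) in the 3 comparisons, filled where the adjusted p is under 0.05. Most points lie within 1 of 0, and the farthest are Gdpd1 (-2.24) and Thbs1 (2.51) in SCC2 against SCC1.

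Among 7 tested phosphatases and relatives, 3 rose and 3 fell in SCC1, where 39.2% and 30.9% of all tested genes did. In SCC2 3 rose and 2 fell, against 34.7% and 32.9%. Acp6, a mitochondrial phosphatase of LPA, rose from 23.9 ± 0.370 to 31.5 ± 1.07 FPKM in SCC1 and fell to 20.3 ± 0.637 in SCC2. Plppr2, a member of the family without known phosphatase activity, fell to 6.85 ± 0.169 FPKM in SCC1 and 4.60 ± 0.0531 in SCC2 from 7.97 ± 0.124 in LLC1. The SCC1 fall was lost without chromosome medians (adjusted p = 0.864). Plpp6 had 3.02 ± 0.337, 2.20 ± 0.0237 and 3.78 ± 0.443 FPKM and Plpp5 14.4 ± 1.07, 12.7 ± 1.15 and 16.3 ± 0.337 FPKM in LLC1, SCC1 and SCC2. The Plpp5 calls against LLC1 were lost with no filter on low values (adjusted p = 0.0575 and 0.0592) and when single libraries were left out, namely LLC1 replicate 1 (0.101), LLC1 replicate 2 (0.0720) or SCC1 replicate 1 (0.110) for SCC1 and LLC1 replicate 3 (0.111) or SCC2 replicate 3 (0.0770) for SCC2. The SCC2 call of Plpp5 was also lost without chromosome medians (0.352). The SCC2 rise of Plpp6 did not pass without chromosome medians (adjusted p = 0.0857).

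Of the other ENPP genes, 1 of 6 was tested. Enpp5, a membrane-bound family member, fell in SCC1 from 1.84 ± 0.170 to 0.176 ± 0.168 FPKM (log2 change -1.28, limma adjusted p = 1.30e-07) and had 2.39 ± 0.127 FPKM in SCC2. At such low levels the size depends on the scale: the SCC1 change was -2.97 with a pseudocount of 0.1 and -3.67 by limma-voom. The SCC2 rise (0.25, adjusted p = 0.0230) was lost with a pseudocount of 0.1 (adjusted p = 0.299) and without LLC1 replicate 2 (0.0770), LLC1 replicate 3 (0.0638), SCC2 replicate 1 (0.0560) or SCC2 replicate 2 (0.0707). Enpp1, Enpp3 and Enpp4 were under 1 FPKM in all lines. Thus Enpp5, lowest in SCC1, did not follow Enpp2.

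Enzymes that make LPA by other routes or reacylate lysophospholipids changed in both directions. Of 25 tested, 11 rose and 10 fell in SCC1, where 39.2% and 30.9% of all tested genes did. In SCC2 9 rose and 7 fell, against 34.7% and 32.9%. Gdpd1, a glycerophosphodiesterase that can make LPA inside the cell, rose from 1.67 ± 0.0804 to 6.07 ± 0.291 FPKM in SCC1 and fell to 0.496 ± 0.0771 in SCC2. The SCC2 level was thus far below that of SCC1 (log2 change -2.24, SE 0.0534, limma adjusted p = 1.11e-11), and by more with a pseudocount of 0.1 (-3.38) or limma-voom (-3.59). Pla2g7, the plasma-type platelet-activating factor acetylhydrolase, fell with Enpp2 in both subclones, from 48.0 ± 1.69 to 36.3 ± 0.356 and 26.3 ± 1.34 FPKM. Pla2g6, a calcium-independent phospholipase A2, rose from 10.8 ± 0.170 to 13.5 ± 0.429 FPKM in SCC1 and fell to 5.81 ± 0.0706 in SCC2. Agpat4, which acylates LPA to phosphatidic acid, did likewise (19.3 ± 0.762, 22.3 ± 0.201 and 12.9 ± 0.378 FPKM).

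Of 19 tested genes through which LPA receptors signal, 6 rose and 11 fell in SCC1, where 39.2% and 30.9% of all tested genes did. In SCC2 9 rose and 7 fell, against 34.7% and 32.9%. The 4 with the smallest adjusted p follow. Gnai2, an inhibitory G protein alpha subunit, fell from 305 ± 8.55 to 231 ± 2.67 FPKM in SCC1 and stood at 308 ± 0.872 in SCC2. The SCC2 difference was not called (log2 change 0.015), but it was called lower with quantile normalization (-0.074) and higher without chromosome medians (0.18). Rock2, a kinase of actomyosin contraction, fell from 61.6 ± 1.5 to 47.7 ± 1.14 FPKM in SCC1 and stood at 62.7 ± 0.627 in SCC2. Rhoa, a small GTPase, fell in SCC1 from 166 ± 0.414 to 139 ± 1.05 FPKM. In SCC2 it had 159 ± 1.88 FPKM, a fall that turned to a rise without chromosome medians (log2 change -0.057 against 0.11). Mrtfa, a cofactor of serum response factor, had 21.8 ± 0.552, 24.5 ± 0.827 and 17.1 ± 0.156 FPKM, and its changes in all 3 comparisons did not pass without chromosome medians.

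The pathway of sphingosine 1-phosphate, the lipid mediator most like LPA, had 7 tested genes. Of the 6 other than S1pr1, 0 rose and 4 fell in SCC1, where 39.2% and 30.9% of all tested genes did. In SCC2 3 rose and 1 fell, against 34.7% and 32.9%. Sphk1, a kinase that makes the mediator, fell in SCC1 from 1.52 ± 0.354 to 0.349 ± 0.0190 FPKM and had 1.52 ± 0.212 in SCC2. Its exporter Spns2 fell in SCC2 from 3.17 ± 0.116 to 1.70 ± 0.0651 FPKM. The phosphatase Sgpp1 fell in SCC1 from 44.8 ± 0.928 to 40.6 ± 1.27 FPKM and rose to 51.3 ± 0.826 in SCC2. The receptor S1pr1 had 1.60 ± 0.136, 0.728 ± 0.0218 and 0.657 ± 0.0984 FPKM. It passed the filter only through LLC1, so its direction was set by the filter and it is left out of the count.

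Genes known to respond to LPA or serum changed in both directions. Of 13 tested, 4 rose and 6 fell in SCC1, where 39.2% and 30.9% of all tested genes did. In SCC2 3 rose and 8 fell, against 34.7% and 32.9%. Plau, the protease urokinase, fell from 89.4 ± 0.462 to 68.6 ± 0.951 FPKM in SCC1 and 34.6 ± 0.640 in SCC2, the order of Enpp2. Thbs1, the matricellular thrombospondin 1, fell from 12.6 ± 0.335 to 3.71 ± 0.166 FPKM in SCC1 and rose to 25.8 ± 0.884 in SCC2. Ptgs2, the inducible cyclooxygenase, rose from 16.8 ± 1.08 to 31.2 ± 0.145 FPKM in SCC1, and its rise to 18.8 ± 0.0836 in SCC2 was lost without chromosome medians (adjusted p = 0.690).

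Surface partners of autotaxin and carriers of LPA had 4 tested genes, all called against LLC1, with 1 higher and 3 lower in each subclone. Of all tested genes, 70.1% were called in SCC1 and 67.6% in SCC2, so little is read from a count of 4. The integrin subunit Itgb1 fell from 148 ± 0.847 to 110 ± 0.418 FPKM in SCC1 and rose to 177 ± 0.843 in SCC2. Itgav, the alpha v subunit, fell to 18.2 ± 0.246 and 19.5 ± 0.468 FPKM from 23.1 ± 0.686. The heparan sulfate proteoglycan Sdc4 fell from 86.3 ± 2.48 to 79.2 ± 1.02 and 68.6 ± 1.17 FPKM. Gelsolin, Gsn, an actin-severing protein that binds LPA in plasma, fell in SCC2 from 207 ± 2.68 to 170 ± 1.95 FPKM. In SCC1 it had 222 ± 1.47 FPKM, a rise that was lost without chromosome medians (adjusted p = 0.953). Itgb3, which binds autotaxin together with Itgav, was under 1 FPKM in all lines.

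Markers of cell types that can express autotaxin were measured beside these values. The summed level of the fibroblast markers, nearly all of it Col3a1, was 572 to 599 FPKM in LLC1, 258 to 269 in SCC1 and 692 to 714 in SCC2, highest in SCC2 and lowest in SCC1. Lum (0.725, 0.0865 and 0.994 FPKM in LLC1, SCC1 and SCC2) and Col1a2 (0.0877, 0.0412 and 0.139 FPKM) had that order of means too. The remaining analysed genes of that list had means highest in LLC1 and lowest in SCC2, as Enpp2 had. Pdgfra, a growth factor receptor, had 5.18 ± 0.212, 3.35 ± 0.105 and 3.04 ± 0.0788 FPKM, and the proteoglycan Dcn 3.02 ± 0.495, 2.34 ± 0.0821 and 2.10 ± 0.383 FPKM. Pdgfrb (0.714, 0.397 and 0.145 FPKM) and Col1a1 (0.461, 0.282 and 0.211 FPKM) had the same order of means below 1 FPKM. The adipocyte list, of which Fabp4 alone reached 1 FPKM, summed to 2.16 to 2.69, 3.21 to 4.37 and 0.198 to 0.400 FPKM. Endothelial markers summed to at most 0.0960 FPKM in any library. Macrophage and leukocyte markers summed to 16.0 to 17.4, 29.2 to 33.3 and 18.8 to 19.3 FPKM, and lung epithelial markers to 334 to 343, 447 to 457 and 233 to 234 FPKM. Their part in the results was not tested.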

How the data were processed

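RNA from 3 libraries each of LLC1, SCC1 and SCC2 was sequenced. The deposited values were FPKM, which the authors computed with cufflinks after Trimmomatic and hisat2, per the labels' series design text. No source used here gives their versions or the annotation. GRCm38 and mm10 are the builds named, per the submitters' processing notes. The design text and the labels' protocols differ on the library kit (stranded TruSeq and SMARTER). Positions are RefSeq GRCm38.p6. Groups came from sample titles. Genes at FPKM of at least 1 in at least 3 libraries (10519) were fitted on log2(FPKM + 1) with limma 3.58.1 in R 4.3.3 (trend and robust options, all 9 libraries, lines as the only factor, two-sided tests), and p-values were adjusted by Benjamini-Hochberg across every gene in the fit. Whole fragments were worked back from the steps of low FPKM values: all 12270 genes above 0 in every library came out whole within 0.001 fragments, up to a factor common to a gene. Fragment counts cover counting error only. The fit was tested on simulated data with few changed genes and the same dispersion for every gene. There it called 93.9% to 97.0% of 1.5-fold changes and 0.0590% to 0.118% of unchanged genes. Most genes were called in the real data, so the simulation does not show the error of the fit there. Python 3.11.15 made the tables (pandas 2.3.3, numpy 2.4.6) and figures (matplotlib 3.10.9).

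The members and lists were chosen with earlier results of these data known. Genes named are the 7 members, the 8 genes nearest to Enpp2, up to 4 genes per list with the smallest adjusted p in any comparison, and the 5 neighbours on each side of Enpp2. Rb1, Mtrex, Plpp2, Gpr35, the untested receptors, ENPP genes and Itgb3 were named after their values were seen. Alternatives were another pseudocount, other filters on low values, limma without trend, quantile and median-of-ratios scaling, a replicate block, fits of 2 lines, limma-voom on fragments and leaving out each library. Removal of chromosome medians (chromosomes with at least 20 tested genes) was added after seeing the data. Some results are not reported here.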

Additional observations from a re-analysis of the deposited data

Results flagged for a closer look

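The 5 tested members and the genes named from the lists made up 30 genes. Genes named for another reason, such as Rb1, were not among the 30. In 13 of the 30, all SCC1 libraries lay on one side of every LLC1 library and all SCC2 libraries on the other. Of the 10519 tested genes, 24.0% also showed this pattern. The list genes were picked for a small adjusted p, so the 13 of 30 are not weighed against that share. Of the 13, 2 were members. The log2 difference of SCC2 minus SCC1 was 0.87 for Lpar1 and 0.58 for Plpp1, and for these members the difference is a description with no p-value. For the other 11 it came from the fit of all genes, with limma adjusted p-values of at most 1.44e-05. These 11 were picked for a small adjusted p in any comparison and for subclones on opposite sides of LLC1. Their small p-values follow from that choice and are no further support. SCC2 was higher than SCC1 for Thbs1 (2.51), Enpp5 (1.53), Itgb1 (0.68), Plpp6 (0.58) and Sgpp1 (0.33). The Enpp5 difference was 3.33 with a pseudocount of 0.1 and 4.04 by limma-voom, larger than that of Thbs1 under any alternative run (at most 2.79). SCC2 was lower for Gdpd1 (-2.24, and -3.38 and -3.59 under the same alternatives), Pla2g6 (-1.08), Agpat4 (-0.75), Acp6 (-0.61), Mrtfa (-0.49) and Gsn (-0.38). Groups of 3 libraries are too small for a test of single outlying libraries.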

How the results depend on the processing

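The count of genes called stayed within 1.5 times its value under all 19 alternatives, between 6005 and 8157 in SCC1 against LLC1, 5774 and 7879 in SCC2 against LLC1, and 6474 and 8849 in SCC2 against SCC1. Calls of listed path genes ran from 53 to 70, 48 to 66 and 59 to 75. Enpp2 was lower in each comparison under every alternative. Its changes in SCC1 against LLC1, SCC2 against LLC1 and SCC2 against SCC1 were -1.88, -2.67 and -0.79 when the pseudocount was 0.1, -1.89, -2.68 and -0.80 by limma-voom on fragments, and -1.98, -2.27 and -0.30 without chromosome medians, and the first was -1.85 with quantile normalization. Leaving out single libraries gave -1.82 to -1.80, -2.56 to -2.51 and -0.75 to -0.71. Removing chromosome medians was chosen after seeing the data. It turned the sign for Plpp1 in SCC2 against LLC1 (-0.13), Plpp2 in SCC2 against SCC1 (-0.24), Rhoa in SCC2 (0.11), Mrtfa in SCC1 (-0.0054) and Ccn3 in SCC1 (-0.033). It also turned the sign for Mrpl13 (-0.076 in SCC1, 0.000194 in SCC2 and 0.076 between the subclones), and between the subclones for Deptor (0.19), Dscc1 (0.36), Taf2 (0.13) and Mtrex (-0.055). Gnai2 in SCC2 was -0.074 with quantile normalization. These follow from subtracting the chromosome's median or from rescaling, and the cause was not tested further.

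The replicate numbers of the titles did not pair the libraries: same-numbered libraries correlated at -0.068 to 0.089 in their deviations from line means, and 2 of 9 libraries correlated best with their own number. With the number as a replicate block, 7306, 7046 and 7962 genes were called in the 3 comparisons, 65, 58 and 69 of the listed genes, and the log2 changes of Enpp2 were -1.81, -2.53 and -0.72. Depth limits Lpar3, Lpar5 and Plpp3, which had at most 2 fragments in a library.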
